A study of Mus musculus with 3 samples.

Results

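The Dlk1-Dio3 cluster is a run of microRNA genes on mouse chromosome 12 that lies between the protein-coding genes Dlk1 and Dio3 and is imprinted. Its probes were found by name: a probe was a member when it named 1 of 50 microRNAs of the cluster, with or without a letter and an arm. This gave 107 of the 1265 microRNA probes on the array, drawn from 55 hairpins, 52 of which had a probe for each arm. All 50 names had a probe, and no member spot was marked as bad on any array. miR-496b was taken by the same rule, but RefSeq places its hairpin on chromosome 19, outside the cluster. A single probe carried the names of both miR-3070a-5p and miR-3070b-5p and could not tell them apart.

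The data were 3 single-colour arrays of mouse intestinal organoids, which are epithelial structures grown from stem cells in a gel. The first array held RNA of organoids of normal epithelium from wild-type mice, and the second RNA of organoids from tumours of ApcMin mice, a strain born with 1 shortened copy of Apc, the brake on Wnt signalling. The third was made from such tumour organoids given 1 uM 5-Aza-CdR (decitabine), a nucleoside that traps DNA methyltransferases and lowers DNA methylation as cells divide. All 3 cultures were fed R-spondin 1, EGF and Noggin in serum-free medium, so the Wnt pathway was stimulated in the wild-type organoids too. The tumour arrays compare tumour with normal tissue as well as ApcMin with wild-type mice, and the sources used here give neither the time under drug nor the number of mice. Each group had 1 array, and each microRNA 1 spot, so no difference below has a replicate check or a test, and array and group cannot be told apart.

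The locus works by parent of origin. Dlk1, Rtl1 and Dio3 are read from the chromosome inherited from the father, while the long non-coding RNAs Meg3, Rian and Mirg and the microRNAs along them are read from the mother's, and methylation of an intergenic control region on the paternal chromosome keeps that copy of the non-coding RNAs silent. The microRNAs are abundant in the embryo, the placenta and the adult brain and scarce in most other adult tissues. Those opposite Rtl1, among them miR-127, miR-136, miR-431, miR-433 and miR-434, pair perfectly with its transcript and cut it. The large group between Rian and Mirg, with miR-379, miR-411, miR-376 and miR-134, is best known from neurons.

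Mature sequences were taken from RefSeq (GRCm38.p6) for 103 of the 107 probes. They are microRNA sequences, not probe sequences, which were not used here. Capitals mark the seed, bases 2 to 8 from the 5′ end, which pairs with target transcripts. The first set holds microRNAs whose probes carried the cluster's clearest signal or its largest differences between arrays.
miR-770-3p (chr12:109563744-109563765, plus strand): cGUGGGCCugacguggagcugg
miR-665-5p (chr12:109586331-109586356, plus strand): aGGGGCCUcugccucuauccaggauu
miR-665-3p (chr12:109586368-109586387, plus strand): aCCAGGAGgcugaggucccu
miR-370-3p (chr12:109618305-109618326, plus strand): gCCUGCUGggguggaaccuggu
miR-494-3p (chr12:109715367-109715388, plus strand): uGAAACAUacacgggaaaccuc
miR-667-5p (chr12:109720020-109720044, plus strand): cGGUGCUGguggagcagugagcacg
miR-3072-5p (chr12:109747893-109747914, plus strand): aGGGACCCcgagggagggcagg
miR-3072-3p (chr12:109747928-109747949, plus strand): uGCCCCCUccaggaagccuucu
The second set holds arms that are well known from brain or embryo and whose probes stayed near background on all 3 arrays. It was chosen after their values were seen.
miR-127-3p (chr12:109592888-109592909, plus strand): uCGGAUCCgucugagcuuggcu
miR-434-3p (chr12:109594565-109594586, plus strand): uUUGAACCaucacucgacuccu
miR-136-5p (chr12:109595331-109595352, plus strand): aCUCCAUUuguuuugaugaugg
miR-379-5p (chr12:109709065-109709085, plus strand): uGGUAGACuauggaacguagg
miR-411-5p (chr12:109710190-109710210, plus strand): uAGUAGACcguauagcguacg
miR-376a-3p (chr12:109723824-109723844, plus strand): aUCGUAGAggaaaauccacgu
miR-410-3p (chr12:109743764-109743784, plus strand): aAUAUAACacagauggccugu
The 103 sequences held 94 different seeds. The 9 seeds that occurred more than once each joined a pair of probes, such as GGUAGAC of miR-379-5p and miR-1193-5p or AUGUAAC of miR-379-3p and miR-411-3p, and none of those 18 probes was above the limit described next. The 20 matched probes above that limit had 20 different seeds, and no other matched probe on the array had the same 7 bases there.

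Brightness was read as the median of a spot in the scanner's arbitrary units. The blank spots averaged 27.3 for wild-type, 29.5 for tumour and 22.7 for treated tumour organoids. The limit for a clear signal was the brightest of 24 negative control spots, at 42.8, 53.0 and 38.3 in the same order. These spots were of 3 kinds, with 8 spots each, and the brightest kind averaged 41.7, 49.3 and 35.3. The other kinds averaged 30.6 and 31.5 on the wild-type, 33.9 and 35.5 on the tumour and 25.7 and 25.8 on the treated array. Brightness also depends on the probe, so values are compared between arrays for 1 probe and not between probes.

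Most of the cluster was dark. On the wild-type array 19 of 107 cluster probes (17.8%) exceeded the limit, against 32.6% of all 1265 probes. The tumour array also had 19 (17.8%), against 32.4% of all probes, and the treated array 16 (15.0%), against 32.3%. Over the 3 arrays, 21 cluster probes (19.6%) were above the limit at least once, against 35.4% of all probes, and 15 (14.0%) were above it every time, against 29.6% of all probes. The remaining 86 were under the limit on all 3 arrays. Under a looser limit, the blank mean plus 2 SD, 72, 71 and 67 of the 107 probes passed, in the same order of arrays, and of the 86 dark probes 51, 50 and 46 did. Many of the dark probes were therefore slightly brighter than blank spots but no brighter than the brightest negative control spot. The dimmest kind of negative control, with averages of 30.6, 33.9 and 25.7, also lay above the looser limit on each array.

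The dark probes filled a narrow band. On the wild-type array their spots ran from 25.7 through a median of 29.8 to 42.7. On the tumour array they ran from 28.6 through 32.4 to 48.8, and on the treated array from 20.6 through 24.2 to 35.1. The 3 nearest to the limit were miR-485-3p, miR-770-5p and miR-341-3p. The miR-485-3p spot read 42.7 on the wild-type, 42.8 on the tumour and 33.8 on the treated array, so it lay just under the limit on the first. Just inside the limit was miR-673-3p, with 36.6, 52.8 and 38.6, which passed on the treated array alone.

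**Figure D1:**
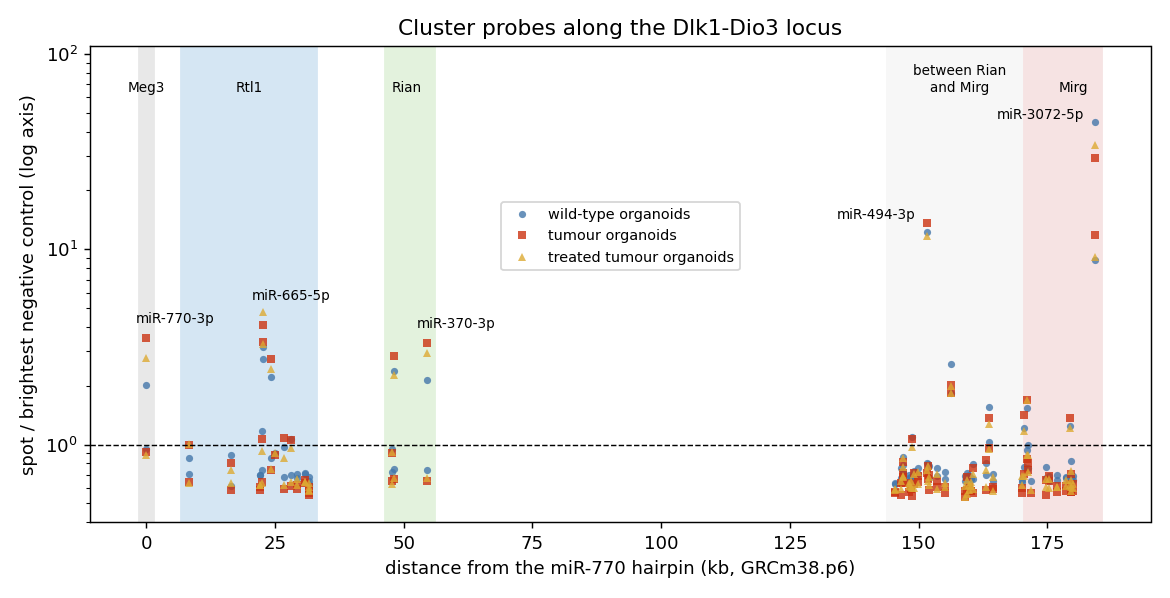
Position of each cluster probe except miR-496b along the locus (distance from the miR-770 hairpin in kb, horizontal). The vertical axis is its spot brightness divided by the brightest negative control of the same array (log axis), with 1 symbol per array. Shaded blocks span the members assigned to each neighbourhood, and the dashed line is the limit; most points lie under it in every block but that of Meg3, which holds 2 probes, and the miR-3072 arms, miR-494-3p, miR-665-5p, miR-770-3p and miR-370-3p stand above it on all 3 arrays.

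At the Meg3 end lies miR-770, read from the host transcript Meg3, a maternally expressed long non-coding RNA. The miR-770-3p spot was above the blank mean by 59.0 in wild-type, by 156 in tumour and by 83.6 in treated tumour organoids. It was highest in tumour organoids and lay above the limit on all 3 arrays. The opposite arm, miR-770-5p, stayed under the limit, with spots of 40.7, 48.8 and 34.0.

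Around Rtl1, the paternally expressed retrotransposon-derived gene needed for the placenta's vessels, 7 of 25 probes (28.0%) were above the limit on at least 1 array. Over all 1265 probes this share was 35.4%. Signals above the blank mean are given in the order wild type, tumour and treated tumour and are not scaled between arrays, of which the tumour array was the brightest. The miR-665-5p probe read 107, 188 and 161, and its opposite arm miR-665-3p read 89.8, 148 and 103. Both arms were lowest in wild-type organoids. The shared probe of miR-3070a-5p and miR-3070b-5p read 67.6, 116 and 70.3, with the tumour array highest.

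The other 4 of this neighbourhood stayed close to the limit. The miR-540-3p probe read 23.0, 27.3 and 12.8, and only the treated array was under the limit. The same held for miR-433-5p, with 18.5, 26.0 and 14.0. The miR-431-3p probe read 14.1, 27.6 and 10.1 and passed on the tumour array alone, and miR-673-3p read 9.24, 23.4 and 15.9. Of the arms known to cut the Rtl1 transcript, miR-127-3p had spots of 28.9, 32.9 and 25.6, miR-434-3p of 30.5, 34.8 and 24.6, and miR-136-5p of 27.9, 30.0 and 22.2. These 3, whose sequences open the second set above, were under the limit on every array, and miR-136-5p was under the looser limit as well.

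Within Rian, another maternally expressed long non-coding RNA, 2 of 6 probes (33.3%) passed on at least 1 array, against 35.4% of all probes. Both passed on all 3 arrays. The miR-370-3p probe read 64.6, 146 and 90.8 above the blank mean, highest in tumour organoids. The miR-1188-3p probe read 75.0, 121 and 64.6, also highest in tumour organoids. The miR-341-3p probe stayed just under the limit, with spots of 40.4, 48.2 and 35.1.

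The stretch between Rian and Mirg is the largest, with 54 probes. Of these, 8 (14.8%) passed on at least 1 array, against 35.4% of all probes. The miR-494-3p probe read 493, 698 and 426 above the blank mean and was far above the limit on all 3 arrays. The miR-667-5p probe read 83.1, 67.3 and 47.3. Before scaling, but not after it, miR-667-5p was the only one of these 8 that was highest in wild-type organoids. Its opposite arm miR-667-3p read 50.9, 77.8 and 53.8. The miR-668-3p probe read 38.2, 60.2 and 42.2. All of these passed on every array.

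Both arms of miR-487b were seen, miR-487b-3p at 39.5, 43.0 and 26.0 on all 3 arrays and miR-487b-5p at 16.9, 21.2 and 13.6, above the limit on the wild-type array alone. The miR-134-3p probe read 24.6, 45.4 and 22.7, with the tumour array highest. It is the arm opposite miR-134-5p, the neuronal regulator of Limk1 in dendritic spines, whose spots of 32.7, 37.4 and 26.5 were under the limit on every array. The miR-323-5p probe read 19.5, 27.5 and 14.5 and fell under the limit on the treated array. The neuronal arms miR-379-5p (26.8, 30.1 and 22.5), miR-411-5p (28.9, 29.3 and 22.6) and miR-376a-3p (28.8, 30.8 and 23.6) had spots under even the looser limit on every array.

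Along Mirg, the last of the 3 long non-coding hosts, 3 of 19 probes (15.8%) passed on at least 1 array, against 35.4% of all probes. Each passed on all 3 arrays. The miR-3072-5p probe read 1885, 1524 and 1281 above the blank mean, and was highest in wild-type organoids. Its opposite arm miR-3072-3p read 352, 604 and 327, with the tumour array highest, so the arms did not move together. The miR-409-3p probe read 25.6, 42.7 and 24.0. The probe for miR-410-3p, which closes the neuronal group, had spots of 29.6, 30.7 and 22.9 and was under the limit throughout.

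**Figure D2:**
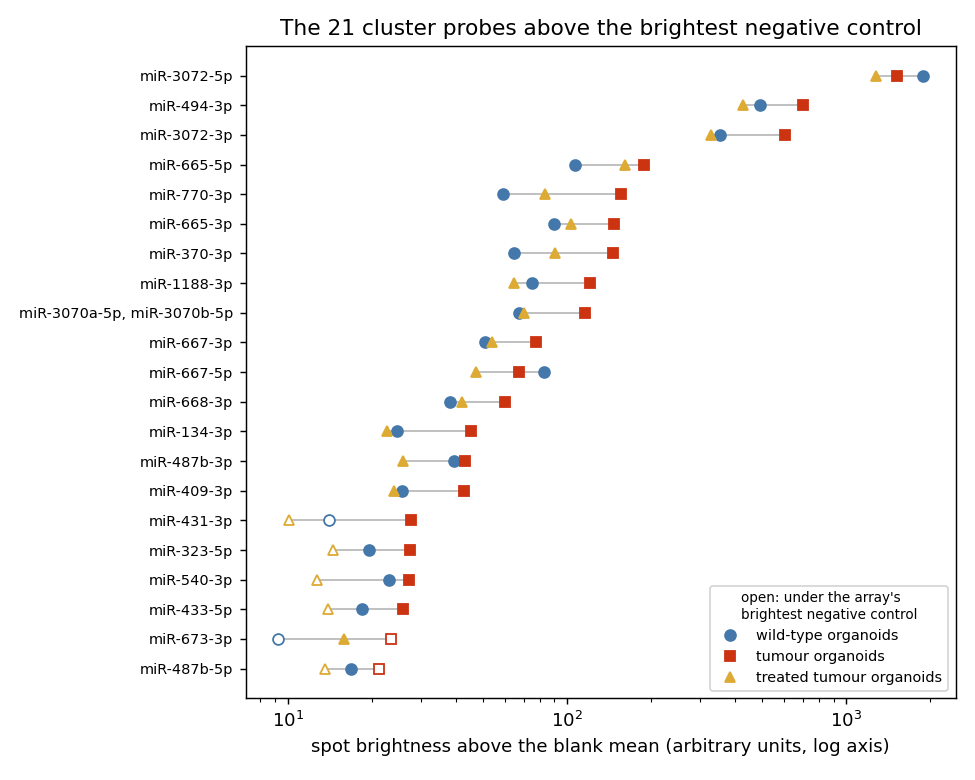
Spot brightness above the blank mean (arbitrary units, log axis) of the 21 cluster probes above the brightest negative control on at least 1 array, with 1 symbol per array and open symbols where a spot was under that array's limit. Signals are not scaled between arrays, and the tumour array was the brightest as a whole. Most are highest on the tumour array, while miR-3072-5p and miR-667-5p are highest on the wild-type array. Brightness is not comparable between rows.

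Either side of a hairpin could carry the signal. Of the 52 hairpins with a probe for each arm, 4 had both arms above the limit on at least 1 array (miR-665, miR-667, miR-487b and miR-3072), 13 had 1 arm and 35 had neither. By side, 14 of 53 3p probes and 7 of 52 5p probes passed. Of all 1265 probes, not split by arm, 35.4% did. The arm that was entered first in the microRNA registry is often the one first cloned from tissue. In 42 hairpins whose arms were entered apart, the earlier arm passed in 9 and the later arm in 8. Only the later arm passed for miR-134, miR-431, miR-323 and miR-1188, among others, and only the earlier one for miR-370, miR-494 and miR-409, among others.

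Most of the bright probes were rich in G and C, though not all. The 20 matched probes above the limit had a median GC content of 65.0% (45.5% to 77.3%), and the 83 matched probes under it 47.6% (23.8% to 76.2%). No cluster probe with a GC content under 40% passed (0 of 16). Between 40% and 50% GC 2 of 33 passed (6.06%), between 50% and 60% 4 of 35 (11.4%), and from 60% upward 14 of 19 (73.7%). By neighbourhood the median GC content was 70.5% for Meg3, 54.5% around Rtl1, 67.5% in Rian, 46.5% between Rian and Mirg and 47.8% along Mirg. Runs of 3 G or 3 C (GGG or CCC in the mature sequence as written, 1 strand) occurred in 16 of the 20 (80.0%) and in 25 of the 83 (30.1%). Among the other matched probes such runs occurred in 239 of 354 above the limit (67.5%) and in 160 of 575 under it (27.8%). In the first set of sequences printed above, miR-770-3p, miR-665-5p, miR-370-3p, miR-494-3p and miR-3072-5p carry GGG.

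The rest of the array showed a like pattern. Among the other 929 matched probes the median GC content was 57.1% above the limit and 45.5% under it, and from 60% GC upward 143 of 184 (77.7%) passed. Across the 103 cluster probes Pearson's r between GC content and log2 spot brightness was 0.52, 0.55 and 0.53 for wild-type, tumour and treated tumour organoids, with Spearman's rho of 0.70, 0.73 and 0.69. Across the other 929 r was 0.42, 0.46 and 0.44. These are descriptions across probes that share an array and its RNA. Below 60% GC, 6 of 84 cluster probes (7.14%) and 211 of 745 other probes (28.3%) passed. The 6 were miR-494-3p, miR-433-5p, miR-487b-5p, miR-409-3p, miR-665-5p and miR-431-3p, and only miR-494-3p, at 45.5% GC, was far above the limit among those under 50%. The part of base composition in the brightness was not tested.

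**Figure D3:**
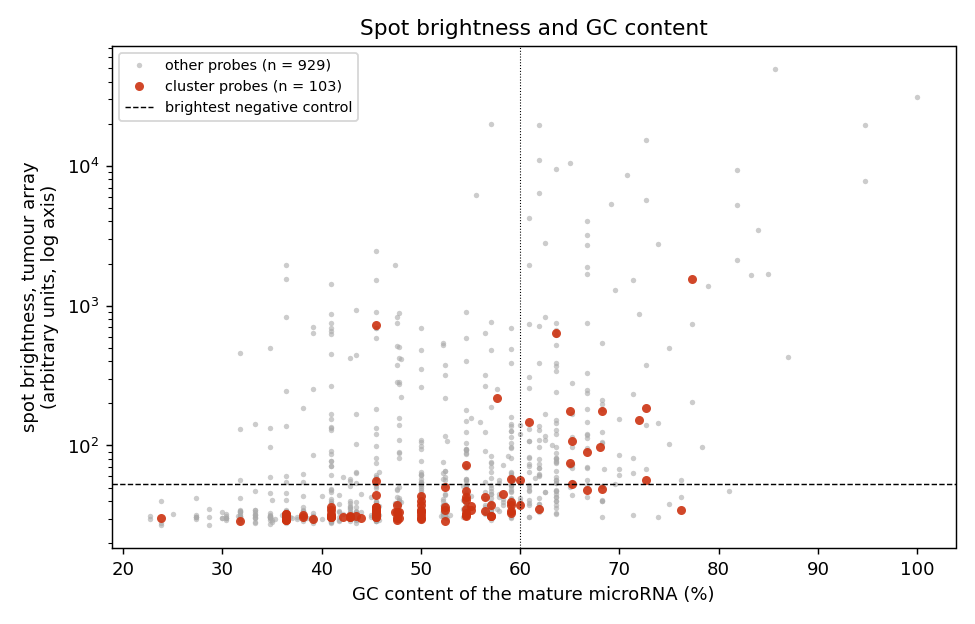
GC content of the mature microRNA (horizontal, percent) against spot brightness on the tumour array (vertical, arbitrary units, log axis) for 103 cluster probes and 929 other probes with a RefSeq sequence. The dashed line is the brightest negative control and the dotted line 60% GC; 14 of 19 cluster probes right of the dotted line passed the limit on at least 1 array and 6 of 84 left of it did.

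The first comparison asked how the cluster differed between tumour and wild-type organoids. The arrays were scaled to each other by quantile normalization over all 1265 probes after a background correction, and differences are on the log2 scale. The correction added an offset of 50. A probe near the limit on its brighter array therefore could not reach 2-fold in any comparison, whatever the other array read. Few probes differed by much: of 20 cluster probes above the limit on at least 1 of both arrays, 0 were at least 2-fold higher in tumour organoids, against 2.97% of all 437 such probes, and 1 was at least 2-fold lower, against 3.20%. The median log2 difference of the 20 was 0.05, beside 0.03 over the 437, and 12 of the 20 were above 0, beside 236 of the 437 (54.0%). Control spots of 1 array had an SD of up to 0.17 on this scale, which gives a difference of 2 single spots an SD of 0.24 from spot noise alone.

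The lower probe was miR-3072-5p, at -1.17. Its raw signal differed far less, by -0.31 on the log2 scale, and its place in the brightness order of the array went from 24 to 41. The value was -1.19 and -1.20 with another offset and with the blank mean subtracted. It was -0.90 and -0.78 with the arrays scaled to a median, -0.75 in the authors' deposited values, and -0.28 both with the scanner's own background column and with the spike controls as the scale. It was therefore lower under all 8 ways of processing and at least 2-fold lower under 3. The opposite arm, miR-3072-3p, differed by 0.15 and was above 0 under all 8, from 0.14 to 0.71.

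The highest difference was that of miR-770-3p, at 0.57, with 0.43 to 0.97 over the 8 ways of processing and a place in the brightness order that went from 216 to 160. Next was miR-370-3p at 0.40 (0.17 to 0.75), from place 207 to 169. miR-665-5p differed by 0.23 (0.14 to 0.59) and miR-665-3p by 0.16 (0.07 to 0.49). On the other side, miR-667-5p differed by -0.50 (-0.87 to -0.02) and went from place 188 to 254, while miR-667-3p was at -0.01. No cluster probe above the limit was 2-fold higher under any of the 8.

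Before any scaling the tumour array was brighter as a whole. The median raw log2 ratio was 0.68 over the 20 cluster probes and 0.63 over all 437, while the spike controls, RNA added in a fixed amount, differed by -0.01 and -0.02. With the spike controls as the scale, the cluster's median was 0.32, beside 0.31 over all probes. The cluster's median thus depends on the scale, as does that of all probes beside it.

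**Figure D4:**
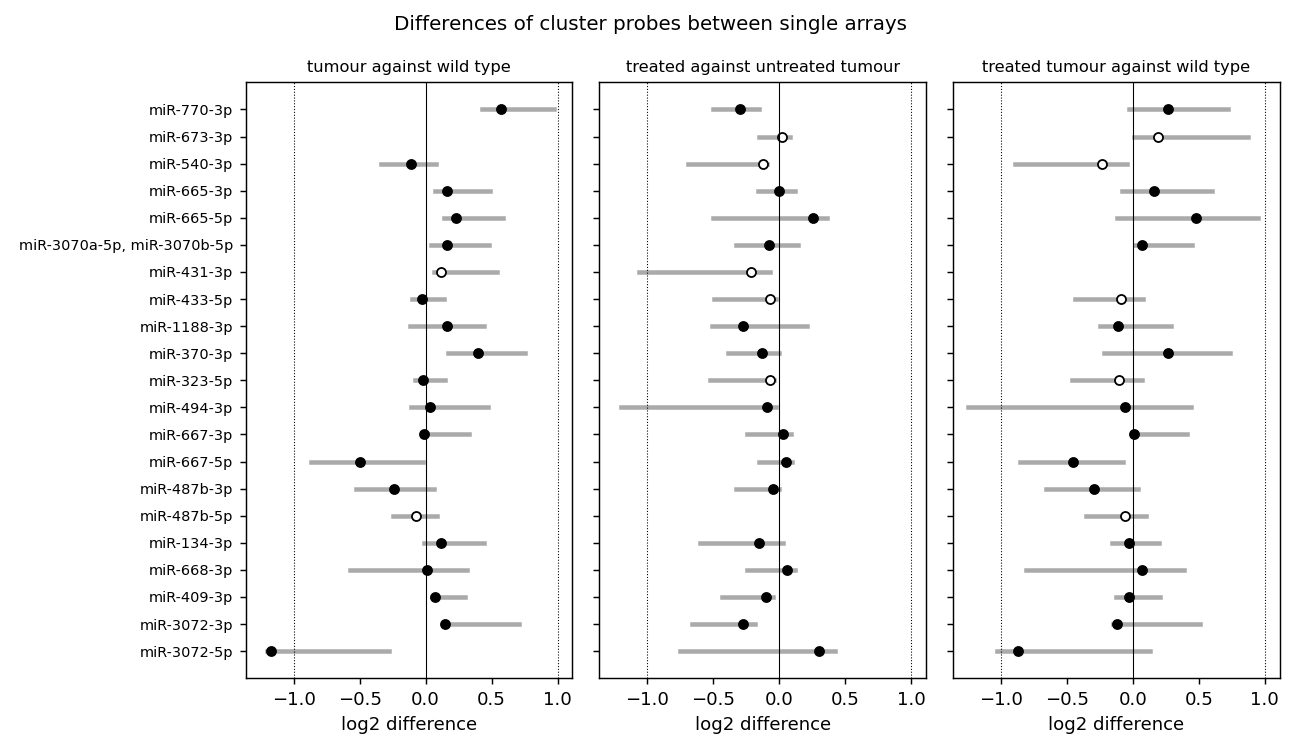
Log2 difference between single arrays (horizontal) of the 21 cluster probes in chromosomal order, 1 panel per comparison; circles are the values used in the text, open where only 1 of both arrays was above the limit and absent where neither was, and grey bars run from the lowest to the highest value over 8 ways of processing. Dotted lines mark 2-fold; in tumour against wild type only miR-3072-5p lies past one, and no circle does in the other panels.

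The second comparison asked how the cluster differed in tumour organoids given 5-Aza-CdR. No probe of the cluster reached 2-fold: of 20 probes above the limit on at least 1 of both arrays, 0 were at least 2-fold higher on the treated array, against 0.234% of all 427 such probes, and 0 were at least 2-fold lower, against 0%. For probes near the limit the offset fixed this outcome, so the counts say nothing about them. One of these, miR-431-3p, was at -0.21 here and at -1.06 in the authors' values. The median log2 difference of the 20 was -0.08, beside -0.02 over the 427, with a range from -0.30 to 0.30. Of the 20, 6 were above 0, beside 183 of the 427 (42.9%). The highest value of any cluster probe above the limit, under any of the 8 ways of processing, was 0.42.

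Several probes that were higher in tumour than in wild-type organoids lay below 0 here. miR-770-3p differed by -0.30 (-0.50 to -0.15), miR-1188-3p by -0.27 (-0.51 to 0.21) and miR-3072-3p by -0.27 (-0.66 to -0.18). miR-370-3p was at -0.13 (-0.39 to 0.00). These values and those of the first comparison share the tumour array, so a spot that read high there gives a rise in the first and a fall in the second. On the other side were miR-3072-5p at 0.30 (-0.75 to 0.42) and miR-665-5p at 0.26 (-0.50 to 0.36), both below 0 only with the scanner's own background column. miR-494-3p was at -0.09, but at -1.20 with that column. miR-431-3p was under the limit on the treated array and has only a bound, at least 1.05-fold lower as read from single spots.

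Some probes crossed the limit. On the treated array miR-673-3p alone was newly above it, and miR-540-3p, miR-431-3p, miR-433-5p and miR-323-5p were no longer above it, while over all 1265 probes 17 were newly above and 19 no longer. At the looser limit 6 cluster probes were newly above and 10 no longer, beside 56 and 101 over all probes. A probe above the limit on 1 of both arrays has a bound only, and over the 3 comparisons those bounds lay between at least 1.01-fold and at least 1.12-fold. They are read from single spots and make no allowance for spot noise. In treated against untreated tumour the 86 dark probes differed by -0.12 to 0.08, values that the background correction keeps near 0 for dim spots.

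In the third comparison, treated tumour against wild-type organoids, 0 of 20 cluster probes were at least 2-fold higher, against 2.95% of all 440 such probes, and 0 were at least 2-fold lower, against 3.18%. The median was -0.04, beside 0.01 over the 440, with 8 of the 20 above 0, beside 224 of the 440 (50.9%). miR-3072-5p was lowest at -0.87, but at 0.13 with the spike controls as the scale, and miR-667-5p was at -0.45 (-0.85 to -0.07). miR-665-5p was highest at 0.48 (-0.12 to 0.95), and miR-770-3p and miR-370-3p were both at 0.27. Both comparisons with wild type share the wild-type array.

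Markers of cell types were read from the same arrays, where 35.4% of all 1265 probes were above the limit on at least 1 array. Of the intestinal epithelial list (the miR-192, miR-194, miR-215 and miR-200 families) 15 of 17 probes were above the limit on at least 1 array, with summed signals above the blank mean of 11262, 6890 and 4513. Of the neuronal list 2 of 9 passed, both 5p arms of miR-128 (miR-128-1-5p and miR-128-2-5p). The miR-128-3p probe and those of miR-9, miR-124 and miR-137 were under the limit on every array. The list summed to 1764, 2099 and 1753, of which miR-128-2-5p alone gave 1666, 1916 and 1649. The smooth muscle and fibroblast list had 4 of 10 above the limit and sums of 138, 171 and 114, with miR-145 and miR-143-3p under it throughout. Blood cells had 2 of 11 (319, 506 and 264), muscle 2 of 11 (61.8, 117 and 63.4), endothelium 0 of 2 (7.18, 11.7 and 5.44) and endocrine cells 4 of 5 (296, 367 and 233). Apart from the epithelial list, these unscaled sums were highest on the tumour array, the brightest of the 3. After scaling, the median log2 differences in tumour against wild type of list members above the limit were -0.28 for the epithelial, -0.02 for the neuronal, 0.05 for the smooth muscle and fibroblast, 0.09 for the blood, 0.12 for the muscle and -0.10 for the endocrine list. The part of these cell types in the cluster's values was not tested.

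Other imprinted microRNAs served as a comparison list: those of H19, Igf2, Mest and Nespas and the large Sfmbt2 families. Of these 14 of 81 were above the limit on at least 1 array, against 35.4% of all 1265 probes. In the 3 comparisons, taken in the order above, the median of those above the limit was 0.02, -0.01 and 0.03 on the log2 scale. Over all probes above the limit it was 0.03, -0.02 and 0.01. The brightest, miR-296-5p of the Nespas region, read 872, 1864 and 964 above the blank mean, and miR-483-3p, from an Igf2 intron, read 65.1, 108 and 63.1. Before scaling, both were highest on the tumour array, as miR-770-3p was.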

How the data were processed

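Per the labels' protocols, RNA came from a mirVana extraction and carried the dye Hy5 (miRCURY LNA kit). Scans were made at 635 nm with 3 gains, per the file headers. The deposited scanner intensity is a spot's median brightness, with no background subtracted. The authors' deposited value table holds an intensity that follows a straight line on that median, less the blank level and scaled to a median of 25.0 per array (largest residual 1.3e-05).

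limma 3.58.1 (R 4.3.3) corrected the background by normexp, with the mean and SD of 1664 blank spots after trimming 5% at each end and an offset of 50, and quantile normalized 1265 probes. Log2 values were computed from the deposited intensities. The offset draws differences of dim probes toward 0. The limit was the brightest of 24 negative control spots per array. Every cluster probe above it on at least 1 array was named, with the 3 nearest under it. With 1 array per group no test was run, and the number of arrays limits the precision. The steps were tested on simulated data, scored only for probes brighter than most cluster probes, so the test does not cover dim ones. Python 3.11.15 was used elsewhere. Members, lists and the limit were chosen with earlier results of these data known. The sources used here name no build, platform or scanner software.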

Additional observations from a re-analysis of the deposited data

How the results depend on the processing

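The 8 ways of processing were the one used in the text, an offset of 16, the blank mean subtracted, the scanner's own background column, scaling to the median of probes above the blank limit or of all probes, scaling to the spike controls, and the authors' deposited values. In tumour against wild type the count of cluster probes at least 2-fold lower was 1, and 0 under the background column, both median scalings, the spike controls and the authors' values. The median was 0.32 with the spike controls and 0.24 in the authors' values, where the text has 0.05. Over all 437 probes above the limit it was 0.31 and 0.19, where the text has 0.03. In treated against untreated tumour the count of probes at least 2-fold lower was 1 under the background column (miR-494-3p), where the text has 0. It was also 1 in the authors' values (miR-431-3p, at -1.06, which has only a bound). The cluster's median was -0.33 in the authors' values, beside -0.24 over all 427 probes above the limit. In treated tumour against wild type the count of lower probes was 2 under the background column and 1 at a threshold of 1.5-fold. The cluster's median there was 0.30 with the spike controls, beside 0.33 over all 440 probes above the limit. The cause of these differences was not tested. With the blank mean plus 2 SD as the limit 72, 71 and 67 cluster probes passed in wild-type, tumour and treated tumour organoids, and with 3 SD 58, 62 and 53. Of 441 values of single named probes under other ways of processing, 304 moved by less than the largest spread of control spots (0.17) and 137 by more. No 2-fold difference changed sign. Over all probes in treated against untreated tumour, 1 was at least 2-fold higher and 0 lower in the text, and 22 and 24 under the background column. No paired analysis was possible because each group had 1 array, and for the same reason no replicate could be left out. Signal over background limited what could be compared: 86 of 107 cluster probes never exceeded the brightest negative control.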

Other observations

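RefSeq lists 7 further microRNA genes between Dlk1 and Dio3 that the name rule did not take, with 11 probes, 3 of which were above the limit on at least 1 array. The miR-1906 probe, whose hairpin lies in Meg3 with an identical copy on the X chromosome, read 125, 509 and 214 above the blank mean in wild-type, tumour and treated tumour organoids. It differed by 1.20 on the log2 scale in tumour against wild type (0.88 to 1.65 over the 8 ways of processing) and by -0.51 (-0.85 to -0.49) in treated against untreated tumour. Its 2 loci cannot be told apart on the array. Its neighbour in the text, miR-770-3p, had the highest difference among the members in the first comparison and the lowest in the second. The lowest value, -0.30, lay close to the -0.27 of miR-1188-3p and was the lowest only in the processing used in the text. Both comparisons share the tumour array, for miR-1906 as well.

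At the other end of the interval, by Dio3, which encodes the deiodinase that inactivates thyroid hormone, the miR-1247-3p probe read 833, 1658 and 1050. It differed by 0.42 (0.36 to 0.96) in tumour against wild type and by -0.04 (-1.37 to 0.03) in treated against untreated tumour. The miR-1247-5p probe read 20.2, 37.9 and 18.1, near the limit. The probes of miR-432, miR-544, miR-666, miR-882 and miR-3544 were under the limit on all 3 arrays.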
